A study of Oryza sativa with 4 samples.

Results

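In rice seedlings whose ABA 8′-hydroxylase gene *OsABA8ox3* was targeted by RNA interference, 273 of 57258 probe sets had leaf signals over 2-fold higher than in wild type (WT) both at 0 h and at 2 h of PEG. They were chosen by the measured values themselves, namely a minimum log2 signal of 6 on each of the 4 arrays and a difference of RNAi-9 minus WT above 1 at both times. They made up 1.31% of the 20916 probe sets that reached the minimum, here called the measured probe sets, and 70 measured probe sets (0.335%) lay over 2-fold lower in RNAi-9 at both times. The balance between these counts depends on the scaling, since with the arrays scaled to the hybridization controls 111 probe sets were higher and 169 lower. At each time alone, 690 (3.30%) were over 2-fold higher in RNAi-9 at 2 h and 800 (3.82%) at 0 h. Because the rule used these genotype differences, their sizes are given as a description, with no test.

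The groups were RNAi-9 at 2 h of PEG, WT at 2 h of PEG, RNAi-9 at 0 h and WT at 0 h, all in the ZH11 (Zhonghua 11) background. Leaves of four-leaf-stage seedlings were taken before and 2 h after transfer to 20% PEG, a polymer that makes water harder for roots to take up, and each condition had 1 Affymetrix Rice Genome Array. RNAi-9 is a single transformed line with 1 construct insertion, and per the study's methods WT was ZH11 transformed with the pYL vector. No 2 h array without PEG was analysed here, so PEG and elapsed time cannot be told apart. With 1 array per condition no value has a replicate error, and whether any difference exceeds the spread between plants is unknown.

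ABA 8′-hydroxylases are cytochrome P450 enzymes that begin the main route of ABA breakdown. ABA accumulates in leaves that lose water, closes stomata and switches on genes for protective proteins such as dehydrins. Through crosstalk with auxin, ethylene and gibberellin it is also tied to leaf growth, in which new cellulose and other wall polymers are laid down along microtubules. The level of the silenced gene was not analysed here, so no check of the silencing is given.

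The members were moderate in signal. Their median log2 signal was 10.05 in RNAi-9 and 8.43 in WT at 2 h, and 9.35 in RNAi-9 and 7.74 in WT at 0 h. The measured probe sets had medians of 9.41 in RNAi-9 and 9.41 in WT at 2 h, and 9.60 in RNAi-9 and 9.60 in WT at 0 h. In WT, 44 members lay under 7 at 2 h and 86 at 0 h, close to the minimum, while 100 members were at 8 or above on all arrays. Bulk leaf RNA cannot separate more RNA per cell from more cells of a type.

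The leaf markers were bright on all arrays. Of 14 leaf markers 5 were paired, and 11 of their 12 probe sets reached 6 on all arrays, with array medians from 14.68 to 15.13. Of the root markers, 4 of 6 were paired, and 2 of their 4 probe sets, for LSI1 and AMT1;2, reached 6. LSI1 ran from 8.51 to 10.17 and AMT1;2 from 6.47 to 6.82, while LSI2 was at or below 1.75 and PHT1;6 at or below 5.13. Of 12 seed probe sets 3 reached 6, with GLB1 up to 11.10, GLUA2 up to 10.54 on 1 of its probe sets, and RAG2 up to 7.27 on 1 of its probe sets. Of 4 panicle and meristem probe sets only MADS1 reached 6, with 7.61 in RNAi-9 and 6.98 in WT at 2 h, and 8.12 in RNAi-9 and 7.13 in WT at 0 h. The part of such other tissue markers in the results was not tested. No marker probe set was a member. The 9 hybridization controls, added to every array in known amounts, were all higher on the RNAi-9 2 h array than on the WT 2 h array, by a median of 0.44, against 0.06 between the genotypes at 0 h. Their part in the 2 h differences was not tested; the effect of scaling to them is given with the other settings. The 3′ minus 5′ signal of the actin control, which rises with RNA breakdown, was 4.28 in RNAi-9 and 4.33 in WT at 2 h, and 4.51 in RNAi-9 and 4.74 in WT at 0 h. That of the Gapdh control ran the other way between genotypes, with 2.53 in RNAi-9 and 2.33 in WT at 2 h, and 2.74 in RNAi-9 and 2.64 in WT at 0 h. On this log2 scale the 3′ signal exceeded the 5′ signal over 4-fold in both controls on every array. The part of RNA quality in the results was not tested.

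The median of the genotype difference over the 273 members was 1.32 (2.50-fold) at 2 h and 1.52 (2.87-fold) at 0 h, where the measured probe sets had medians of -0.02 and 0.01. The middle 50% of members ran between 1.17 and 1.72 at 2 h and between 1.25 and 1.88 at 0 h. The highest values were 5.07 at 2 h and 5.91 at 0 h. A difference above 2, or over 4-fold, was reached by 33 members at 2 h, by 54 at 0 h and by 23 at both times. The difference was smaller at 2 h than at 0 h in 164 of 273 members, or 60.1%, and in 52.8% of the measured probe sets, a count that ran from 148 to 236 members under other scalings. It shifted by less than 0.5 between the times in 186 members, shrank by over 1 in 10 and grew by over 1 in 6.

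**Figure D1:**
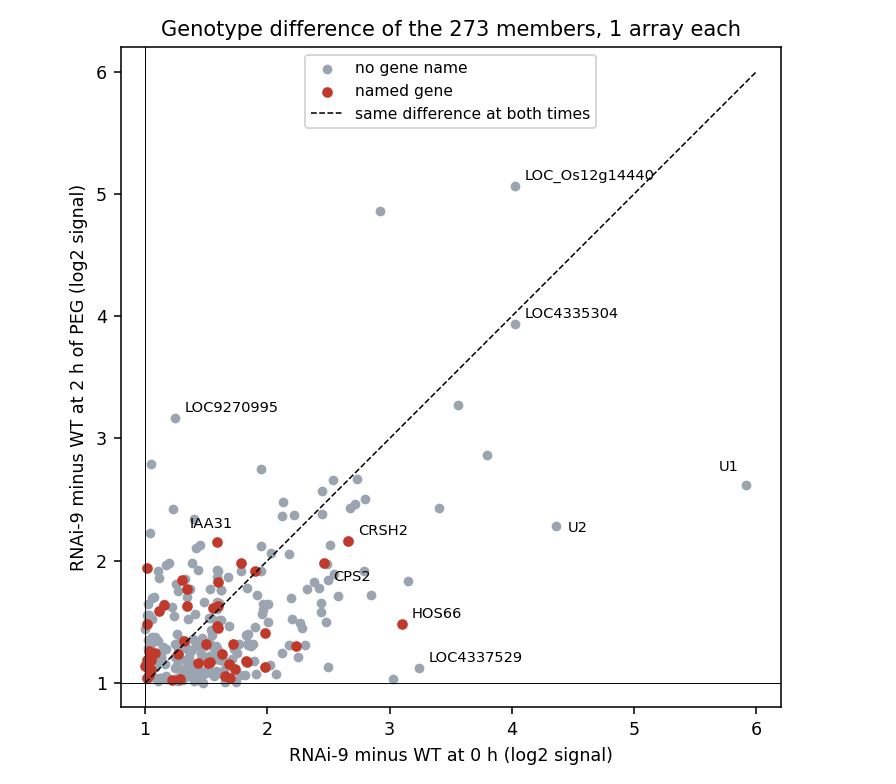
Difference in log2 signal, RNAi-9 minus WT, at 2 h of PEG (vertical) and at 0 h (horizontal) for the 273 members, 1 point per probe set and 1 array per condition; red points have a gene name. Most points lie between 1 and 2 on both axes, U1 reaches 5.91 at 0 h, and the lectin gene LOC_Os12g14440 reaches 5.07 at 2 h.

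Choosing by the difference at 1 time left the difference at the other time unused. The minimum of 6 was still required on all 4 arrays. Both sets below include the 273 members, so they give a description and no independent check. The 800 probe sets chosen at 0 h had a median difference of 0.65 at 2 h, and 84.9% of them were above 0 there, against 47.7% of the measured probe sets. The 690 chosen at 2 h had a median of 0.78 at 0 h, and 85.5% were above 0, against 50.8%. Only 4 of the 800 and 4 of the 690 were over 2-fold lower in RNAi-9 at the other time. The arrays of both times come from the same plant lines, so this describes these arrays and not how other lines would behave.

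Most members have no described function. The annotation paired 217 members with 1 gene, 1 with several and 55 with none, giving 199 genes, and 46 members of 43 genes carry a gene name. The study's supplementary tables describe another 20 members, but only among probe sets that rose after PEG, so these descriptions lean towards PEG-responsive genes. Neither source describes 207 members. Of the 2270 measured probe sets with a gene name, 2.03% were members, against 1.31% of all. The gene lists and families below hold only named probe sets, so 2.03% is the closer base for their shares. Members without a paired gene are numbered here from U1 by falling mean of the 2 differences.

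The largest mean difference belonged to LOC_Os12g14440 (LOC4351887), described as a jacalin-like lectin, a class of carbohydrate-binding proteins. Its brighter probe set had 13.89 in RNAi-9 and 8.82 in WT at 2 h, and 11.27 in RNAi-9 and 7.25 in WT at 0 h. That is 33.5-fold at 2 h and 16.3-fold at 0 h. Its other probe set had 13.02 in RNAi-9 and 8.16 in WT at 2 h, and 9.70 in RNAi-9 and 6.78 in WT at 0 h. Both probe sets showed the same order of the 4 arrays, with RNAi-9 at 2 h highest. The difference of the second one grew by 1.94, the most of all members.

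The unpaired U1 had the largest difference at 0 h. Its signal was 9.84 in RNAi-9 and 7.22 in WT at 2 h, and 12.65 in RNAi-9 and 6.74 in WT at 0 h. The fold was thus 6.16 at 2 h and 60.2 at 0 h, the widest shrinkage among members. U2, also unpaired, had 8.84 in RNAi-9 and 6.55 in WT at 2 h, and 10.50 in RNAi-9 and 6.14 in WT at 0 h. In both cases the RNAi-9 signal was lower at 2 h and the WT signal slightly higher.

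LOC4335304, a gene without a described function, differed almost equally at both times. One of its probe sets had 10.53 in RNAi-9 and 6.60 in WT at 2 h, and 11.54 in RNAi-9 and 7.52 in WT at 0 h, so the differences were 3.94 at 2 h and 4.02 at 0 h. The other probe set of that gene gave 3.27 at 2 h and 3.56 at 0 h. LOC9269146 followed with 2.87 at 2 h and 3.80 at 0 h. The others among the 12 largest that pair with 1 gene were LOC4328603, LOC4334163, LOC4350823, LOC4328005, LOC4333794, LOC4341322 and CRSH2, with differences between 1.83 and 2.57 at 2 h and between 2.45 and 3.15 at 0 h. CRSH2, a chloroplast enzyme of the RelA/SpoT type that makes the alarmone ppGpp, was among the brightest members, with 13.78 in RNAi-9 and 11.62 in WT at 2 h, and 13.94 in RNAi-9 and 11.28 in WT at 0 h.

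Several genes of cellulose synthesis were among the members. CESA1, CESA3 and CESA8 encode catalytic subunits of the primary wall complex and CESA4 one of the secondary wall complex. Of 10 measured probe sets of 8 CESA genes, 5 of 4 genes were members, 9 were above 0 at both times, and none was over 2-fold lower in RNAi-9 at either time. Members made up 2.03% of the named measured probe sets, and 31.1% of all measured ones were above 0 at both times. CESA4 had 10.53 in RNAi-9 and 8.91 in WT at 2 h, and 9.35 in RNAi-9 and 7.80 in WT at 0 h. CESA1 had 11.20 in RNAi-9 and 10.08 in WT at 2 h, and 10.44 in RNAi-9 and 8.70 in WT at 0 h. CESA8 had 10.59 in RNAi-9 and 9.33 in WT at 2 h, and 10.14 in RNAi-9 and 9.11 in WT at 0 h. For these 3 genes RNAi-9 exceeded WT by between 1.12 and 1.61 at 2 h and between 1.03 and 1.74 at 0 h. The brighter CESA3 probe set, one of the members nearest the threshold at 0 h, gave 1.14 at 2 h and 1.0 at 0 h, and its dimmer one 1.10 and 1.05. A second CESA4 probe set missed the threshold with 0.94 at 2 h and 0.82 at 0 h.

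The CESA genes outside the members differed from WT unevenly. CESA7 and CESA9, the remaining secondary wall subunits, gave 1.5 and 0.83 at 2 h and 0.69 and 1.73 at 0 h. CESA6 gave 0.61 at 2 h and 1.16 at 0 h, while CESA5 gave -0.27 at 2 h and 0.91 at 0 h. The median over the measured CESA probe sets was 1.11 at 2 h and 1.04 at 0 h, and 0.68 at 2 h with the arrays scaled to the hybridization controls.

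Other cell wall members act on matrix polysaccharides. CSLF6, which makes mixed-linkage glucan, had 9.93 in RNAi-9 and 8.87 in WT at 2 h, and 8.53 in RNAi-9 and 6.87 in WT at 0 h. XTH8, an enzyme that cuts and rejoins xyloglucan, had 13.81 in RNAi-9 and 12.57 in WT at 2 h, and 12.60 in RNAi-9 and 10.97 in WT at 0 h. Both were higher at 2 h than at 0 h in each genotype. TBL6, of the xylan acetyltransferase family, differed by 1.48 at 2 h and 1.02 at 0 h, and a gene named only cellulase (LOC4347685) by 1.18 and 1.83. The β-glucosidase genes BGLU28 and BGLU10 differed by 1.32 and 1.17 at 2 h and by 1.71 and 1.53 at 0 h, although BGLU10 had other probe sets at -0.34 and 1.31 at 2 h and at 0.17 and 0.86 at 0 h.

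Over the list of cell wall genes, 7 of 44 measured probe sets (15.9%) were members, against 2.03% of the named measured probe sets and 1.31% of all. The median difference over the list was 0.38 at 2 h and 0.68 at 0 h, and with the arrays scaled to the hybridization controls the 2 h median turned to -0.04. Of the 11 expansin probe sets, whose proteins loosen walls, none was a member, and of 13 cellulose-synthase-like ones only CSLF6 was. The list was set with earlier results of these arrays known.

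Some members were tied to microtubules, the tracks along which cellulose synthase moves. TUB8, a β-tubulin, had 8.84 in RNAi-9 and 7.67 in WT at 2 h, and 9.29 in RNAi-9 and 7.86 in WT at 0 h. It was the only member among 16 measured probe sets of 11 tubulin genes, whose median was -0.03 at 2 h and 0.00 at 0 h. Members made up 2.03% of the named measured probe sets, so nothing is read from this count. The kinesin KIN14H differed by 1.47 at 2 h and 1.59 at 0 h, MAP70.4 by 1.07 and 1.03, and LOC_Os09g27700, described as a microtubule associated protein, by 1.40 and 1.26.

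**Figure D2:**
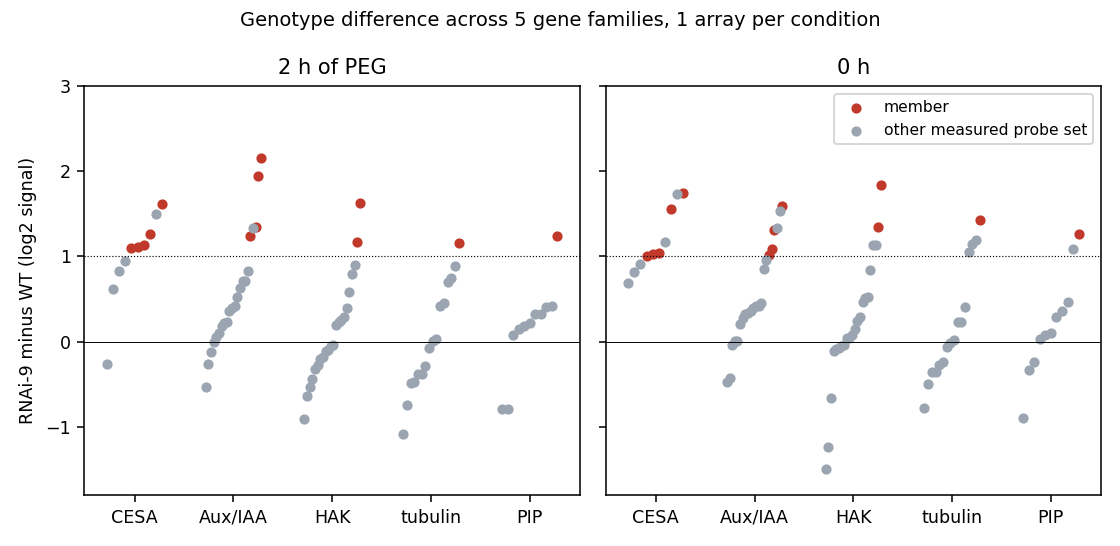
Difference in log2 signal, RNAi-9 minus WT, for every measured probe set of 5 gene families at 2 h of PEG (left) and at 0 h (right), 1 array per condition, with points spread sideways in rank order and the dotted line at 1. Members (red) are 5 of 10 CESA probe sets, 4 of 22 Aux/IAA, 2 of 22 HAK, 1 of 16 tubulin and 1 of 11 PIP probe sets. Of all named measured probe sets 2.03% are members.

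Aux/IAA proteins, short-lived repressors that auxin removes, contributed 4 members among 22 measured probe sets of 21 genes. IAA31 had 8.98 in RNAi-9 and 6.83 in WT at 2 h, and 9.47 in RNAi-9 and 7.88 in WT at 0 h. IAA30 had 9.59 in RNAi-9 and 7.65 in WT at 2 h, and 8.21 in RNAi-9 and 7.19 in WT at 0 h. These 2 genes lie side by side in the gene order, and their differences grew to 2.15 and 1.94 at 2 h, against 1.59 and 1.02 at 0 h. IAA2 had 12.97 in RNAi-9 and 11.62 in WT at 2 h, and 10.88 in RNAi-9 and 9.57 in WT at 0 h, and IAA9 differed by 1.24 at 2 h and 1.08 at 0 h. In the family, 16 of 22 probe sets were above 0 at both times, with medians of 0.41 at 2 h and 0.40 at 0 h, and the 2 h median turned to -0.02 when arrays were scaled to the hybridization controls. Over the whole auxin list, 4 of 54 probe sets (7.41%) were members, against 2.03% of the named measured probe sets and 1.31% of all.

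In ethylene signalling, 2 of 10 list probe sets (20%) were members, against 2.03% of the named measured probe sets and 1.31% of all. EIL1B, a transcription factor of the EIN3 type that switches on ethylene responses, had 9.50 in RNAi-9 and 8.20 in WT at 2 h, and 11.00 in RNAi-9 and 8.77 in WT at 0 h. ERS2, an ethylene receptor, had 9.66 in RNAi-9 and 8.63 in WT at 2 h, and 8.40 in RNAi-9 and 7.11 in WT at 0 h. EIL1B was thus lower and ERS2 higher at 2 h than at 0 h. The bright EIL1A probe set, of the related gene, differed by 0.13 at 2 h and 0.02 at 0 h, and its dimmer one by -0.15 and 1.37. PHP5, a pseudo-phosphotransfer protein of cytokinin signalling, differed by 1.32 at 2 h and 1.5 at 0 h. None of the 25 probe sets of the cytokinin list was a member, from which nothing is read at a share of 1.31%.

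Of 9 probe sets for diterpenoid phytoalexin synthesis, which yields the antimicrobial compounds of rice, 2 were members. That is 22.2% of them, against 2.03% of the named measured probe sets and 1.31% of all. CPS2, the ent-copalyl diphosphate synthase of that route, had 8.36 in RNAi-9 and 6.38 in WT at 2 h, and 9.35 in RNAi-9 and 6.88 in WT at 0 h. CYP701A8, a kaurene oxidase-like P450, had 10.08 in RNAi-9 and 8.26 in WT at 2 h, and 9.97 in RNAi-9 and 8.38 in WT at 0 h. CPS1, the copy used for gibberellin, was not a member, with 1.28 at 2 h and 0.66 at 0 h. The list's median was 0.53 at 2 h and 0.41 at 0 h, and 0.11 at 2 h with the arrays scaled to the hybridization controls.

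Of 7 measured probe sets of LEA proteins and dehydrins, 3 were members, 2 for RAB21 and 1 for RAB16C. That is 42.9% of them, against 2.03% of the named measured probe sets and 1.31% of all. Dehydrins are disordered proteins that accumulate in drying tissue under ABA. One RAB21 probe set had 13.38 in RNAi-9 and 11.61 in WT at 2 h, and 8.18 in RNAi-9 and 6.84 in WT at 0 h. The RAB21 s_at probe set, of a type that can hybridize to several transcripts, gave 1.85 at 2 h and 1.30 at 0 h. RAB16C had 11.41 in RNAi-9 and 9.82 in WT at 2 h, and 8.43 in RNAi-9 and 7.32 in WT at 0 h. RAB16C and RAB21 have 1 gene between them in the gene order, and the probes of such similar genes may share targets. Of the other dehydrin probe sets, Dhn1 gave 0.18 at 2 h and 0.81 at 0 h, and rab25 gave 0.31 at 2 h and -0.38 at 0 h.

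BURP3, of a plant-specific family with stress-responsive members, had 11.63 in RNAi-9 and 9.65 in WT at 2 h, and 8.83 in RNAi-9 and 7.04 in WT at 0 h. It was the only member among 5 measured BURP probe sets, against 2.03% of the named measured probe sets, and 2 of the 5 were above 0 at both times. The median of these 5 was 1.04 at 2 h and 0.09 at 0 h. BURP17 gave -1.84 at 2 h and 0.09 at 0 h, and 1 BURP2 probe set gave 1.04 and -2.02. The salt-induced lectin salT had 12.28 in RNAi-9 and 11.24 in WT at 2 h, and 10.44 in RNAi-9 and 8.75 in WT at 0 h on its a_at probe set. Its x_at probe set differed by 1.16 at 2 h and 1.51 at 0 h. Of 75 probe sets for ABA synthesis, breakdown and signalling, none was a member, 1 was over 2-fold higher in RNAi-9 at 2 h and 3 were at 0 h. The shares of the measured probe sets were 1.31%, 3.30% and 3.82%. A list of this size would hold few at such shares, so nothing is read from these counts.

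The class 1 phytoglobins NSHB1 and NSHB2, which bind oxygen tightly and remove nitric oxide, were both members. NSHB1 had 9.59 in RNAi-9 and 7.67 in WT at 2 h, and 10.48 in RNAi-9 and 8.58 in WT at 0 h. NSHB2 had 10.78 in RNAi-9 and 9.37 in WT at 2 h, and 12.23 in RNAi-9 and 10.24 in WT at 0 h. The NSHB1 member is an s_at probe set, and the other 2 NSHB1 probe sets lay higher in RNAi-9 by 0.97 and 1.13 at 2 h and by 0.83 and 0.86 at 0 h. After PEG the NSHB1 member changed by -0.89 in RNAi-9 and -0.91 in WT, whereas the other 2 changed by 0.34 and 0.64 in RNAi-9 and by 0.20 and 0.37 in WT, so the direction for NSHB1 is not settled.

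Among genes of transport and metal binding, the small metal-binding protein MT4A, a metallothionein, had the highest signal of the named members at 0 h. It had 13.88 in RNAi-9 and 12.43 in WT at 2 h, and 14.28 in RNAi-9 and 12.68 in WT at 0 h. It was the only member of 14 metallothionein probe sets, whose median was -0.56 at 2 h and -0.04 at 0 h, at a share of 2.03% of the named measured probe sets. The aquaporin OsPIP2;6, a water channel of the plasma membrane, had 11.80 in RNAi-9 and 10.56 in WT at 2 h, and 11.37 in RNAi-9 and 10.10 in WT at 0 h. It was the only member of 22 aquaporin probe sets (4.55%, against 2.03% of the named measured probe sets and 1.31% of all). The potassium transporter HAK13 had 7.26 in RNAi-9 and 6.09 in WT at 2 h, and 7.94 in RNAi-9 and 6.10 in WT at 0 h, so WT was close to the minimum. HAK5, also a potassium transporter, differed by 1.63 at 2 h and 1.34 at 0 h on the member probe set, but its far brighter probe set gave 0.28 at 2 h and -0.08 at 0 h. The 2 probe sets of HAK5 therefore do not give the same picture. Over the 22 measured HAK probe sets the median was -0.04 at 2 h and 0.11 at 0 h, and 6 were above 0 at both times. The 2 HAK1 probe sets gave -0.54 and -0.90 at 2 h and -1.50 and -1.23 at 0 h.

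Sugar metabolism gave 2 members of 46 probe sets (4.35%, against 2.03% of the named measured probe sets and 1.31% of all). The sucrose synthase SUS5 had 8.07 in RNAi-9 and 6.44 in WT at 2 h, and 8.08 in RNAi-9 and 6.48 in WT at 0 h, and so hardly moved after PEG. The α-amylase AMY3D, which degrades starch, had 9.68 in RNAi-9 and 8.49 in WT at 2 h, and 7.35 in RNAi-9 and 6.34 in WT at 0 h.

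**Figure D3:**
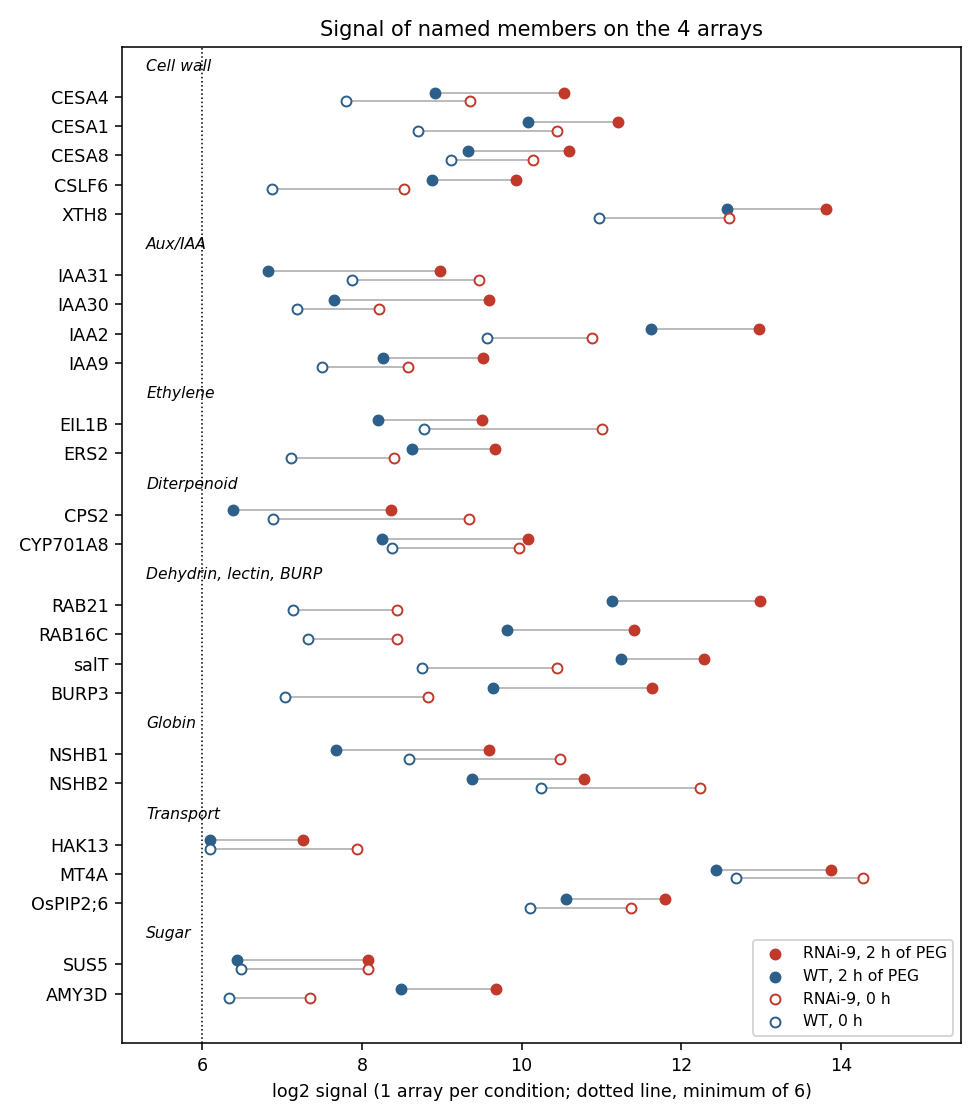
Log2 signal of 24 named members on the 4 arrays, 1 array per condition; red is RNAi-9 and blue WT, filled symbols are 2 h of PEG and open symbols 0 h, and a line joins the genotypes at each time. The genotype gap is above 1 in each pair, while RAB21, RAB16C, BURP3, IAA2 and AMY3D lie far higher at 2 h and the globin probe sets shown and EIL1B lie lower; RAB21 is drawn from its s_at probe set.

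Regulators with member probe sets were HOS66, MADS14, SPL2, MIF1 and RAC4. The class II KNOX homeobox gene HOS66 had 11.44 in RNAi-9 and 9.96 in WT at 2 h, and 9.23 in RNAi-9 and 6.13 in WT at 0 h, so its difference fell by 1.62 between the times. MADS14, a MADS-box gene of flowering, had 7.97 in RNAi-9 and 6.84 in WT at 2 h, and 8.73 in RNAi-9 and 6.75 in WT at 0 h. Its x_at probe set, not a member, differed by 0.51 at 2 h and 0.87 at 0 h. SPL2, a transcription factor with an SBP box, had 12.69 in RNAi-9 and 11.50 in WT at 2 h, and 9.16 in RNAi-9 and 8.11 in WT at 0 h. The mini zinc finger gene MIF1 differed by 1.04 at 2 h and 1.02 at 0 h and the ROP GTPase RAC4 by 1.02 and 1.22. Another RAC4 probe set, not a member, gave 0.73 at 2 h and 1.29 at 0 h.

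The other named members were OC-X, a cysteine protease inhibitor, with 1.64 at 2 h and 1.16 at 0 h, the nucleoredoxin OsNrx2 with 1.06 and 1.03, and LOC4348646 with 1.15 and 1.68. The annotation gives LOC4348646 the names of an acireductone dioxygenase (ARD1) and of a heat stress factor, so its identity is unsettled and it was left out of the heat shock list. Described members without a name included LOC_Os05g04380, a peroxidase, with 1.92 at 2 h and 1.59 at 0 h, LOC_Os04g28620, described as a male sterility protein, with 2.06 and 2.03, and LOC_Os12g31860, described as a ureide permease, with 1.64 and 1.15. The receptor-like LOC_Os03g08550 differed by 1.96 at 2 h and 1.17 at 0 h, and LOC_Os01g53294, a respiratory burst oxidase that produces superoxide, by 1.07 and 1.05.

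Of 29 gene lists, 12 had a member. In the list of NAC, DREB, ERF, MYB and bZIP factors the only member was MADS14, a MADS-box gene of another family that was not taken out. No member came from the lists for ribosome and translation (54 probe sets), antioxidant enzymes and peroxidases (65), calcium sensing and kinases (96), heat shock proteins and factors (39), jasmonate (30), photosynthesis and chlorophyll (28), pathogenesis-related proteins (23) or WRKY factors (7). At the share of 1.31% of all measured probe sets, lists of these sizes would hold few members or none, so nothing is read from these counts. The ribosome list had a median difference of -0.39 at 2 h and -0.63 at 0 h, with 2 probe sets over 2-fold lower in RNAi-9 at both times. A peroxidase described only in the supplementary tables was a member although the named peroxidase list held none.

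After PEG the members shifted upwards more often than the measured probe sets. This comparison of 2 h with 0 h within a genotype was not itself part of the rule. It uses the same 4 arrays on which the rule set its limits, so it is not free of that choice. The gap between the changes of the 2 genotypes follows directly from the 2 differences that the rule used. How far the choice moved these shares was not tested. The median change was 0.53 in RNAi-9 and 0.63 in WT, against -0.24 in RNAi-9 and -0.26 in WT over the measured probe sets. Over 2-fold higher at 2 h were 89 members in RNAi-9 (32.6%, against 10.0% of the measured) and 102 in WT (37.4%, against 11.6%). In both genotypes 79 members were (28.9%, against 7.89%). Over 2-fold lower at 2 h were 26 members in RNAi-9 (9.52%, against 13.2%) and 20 in WT (7.33%, against 14.2%), and 13 were so in both genotypes (4.76%, against 7.90%).

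Within 2-fold in both genotypes were 128 members (46.9%), against 66.8% of the measured probe sets. No member was over 2-fold higher in 1 genotype and over 2-fold lower in the other. The rule limits how far the 2 changes can part, so nothing is read from this count. By median signal the members were dimmer than the measured probe sets on every array except RNAi-9 at 2 h, where they were brighter. The shares were therefore also taken at a signal of at least 8 on all arrays. There 24 of 100 members were over 2-fold higher at 2 h in both genotypes (24.0%, against 7.07% of the measured) and 8 were lower (8.0%, against 6.21%).

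**Figure D4:**
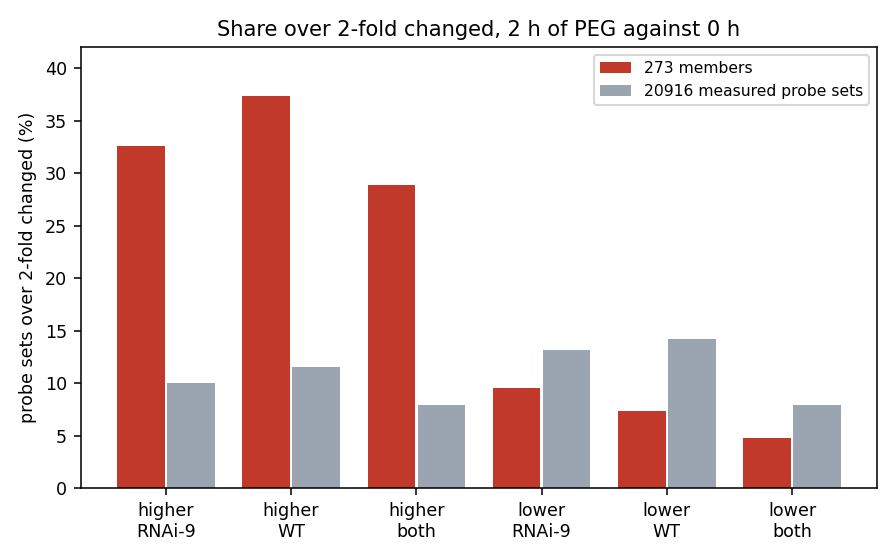
Percentage of probe sets over 2-fold higher or lower at 2 h of PEG than at 0 h, in RNAi-9, in WT and in both, for the 273 members (red) and the 20916 measured probe sets (grey), with 1 array per condition and no error bars. Higher in both were 28.9% of members and 7.89% of the measured probe sets, and lower in both were 4.76% and 7.90%.

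The 79 members that were over 2-fold higher at 2 h in RNAi-9 and in WT had a genotype difference with a median of 1.37 at 2 h and 1.53 at 0 h. Their median change was 1.81 in RNAi-9 and 2.02 in WT, and the difference was smaller at 2 h in 46 of them. The 128 members within 2-fold had median differences of 1.30 at 2 h and 1.43 at 0 h, and the 13 lower in both had 1.33 and 1.37.

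Averaged over the genotypes, the highest changes after PEG were those of RAB21, at 5.20 in RNAi-9 and 4.77 in WT on the first probe set and 4.55 in RNAi-9 and 4.0 in WT on the s_at one. LOC_Os05g38660, an expressed protein of undescribed function, had 13.61 in RNAi-9 and 11.75 in WT at 2 h, and 9.52 in RNAi-9 and 8.41 in WT at 0 h. LOC4329444 changed by 3.95 in RNAi-9 and 4.07 in WT, and LOC4334644 by 3.24 and 3.74. SPL2 changed by 3.53 in RNAi-9 and 3.40 in WT, and the lectin LOC_Os12g14440 by 2.62 in RNAi-9 and 1.57 in WT on its brighter probe set.

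Averaged over the genotypes, the lowest changes were those of LOC4334324, with 10.91 in RNAi-9 and 9.77 in WT at 2 h, and 12.84 in RNAi-9 and 11.76 in WT at 0 h, and of the lower-changing probe set of LOC4347789, LOC4343144, LOC4343987 and U23. These last 4 fell by between 1.54 and 1.86 in RNAi-9 and by between 1.28 and 1.72 in WT. A second LOC4343144 probe set, not a member, changed by 0.33 in RNAi-9 and -0.83 in WT. Among named members the largest fall was that of EIL1B in RNAi-9, at -1.5, against -0.57 in WT, followed by NSHB2 at -1.44 in RNAi-9 and -0.87 in WT.

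**Figure D5:**
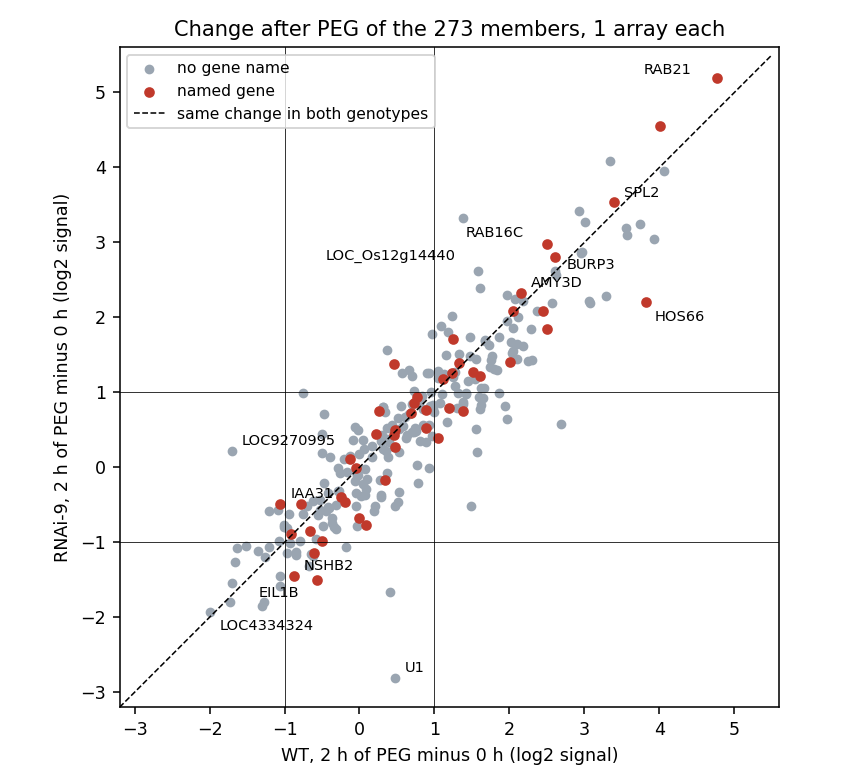
Change in log2 signal, 2 h of PEG minus 0 h, in RNAi-9 (vertical) and WT (horizontal) for the 273 members, 1 array per condition, with thin lines at 2-fold. Points lie along the line of equal change, from LOC4334324 near -2 up to RAB21 at 5.20 in RNAi-9 and 4.77 in WT. U1 lies off it at -2.81 in RNAi-9 and 0.48 in WT. The rule set both genotype differences above 1, so closeness to that line is partly built in and nothing is read from it.

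Some members changed unlike in the 2 genotypes. LOC9270995 had 9.35 in RNAi-9 and 6.18 in WT at 2 h, and 9.13 in RNAi-9 and 7.89 in WT at 0 h, so its difference grew by 1.93 mainly through a lower WT signal. LOC4352505 had 14.00 in RNAi-9 and 11.21 in WT at 2 h, and 13.01 in RNAi-9 and 11.96 in WT at 0 h, and its other probe set, not a member, gave 2.72 at 2 h and 0.67 at 0 h. LOC4332080 and LOC4346087 each grew by 1.19. In the other direction, LOC4337529 had 11.50 in RNAi-9 and 10.38 in WT at 2 h, and 10.93 in RNAi-9 and 7.69 in WT at 0 h. Opposite signs of the change in the 2 genotypes occurred in 35 members (12.8%) and in 17.0% of the measured probe sets. The rule bears on this share too, so nothing is read from it.

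Where a gene had several probe sets these mostly ran the same way. Of the member genes, 17 had 2 or more member probe sets. A further 21 measured probe sets of 17 member genes missed the rule, with median differences of 0.93 at 2 h and 0.72 at 0 h, and 16 of them were above 0 at both times, as were 31.1% of the measured probe sets. LOC4339971 was the furthest from its member probe set, with -0.02 at 2 h and -1.07 at 0 h. Another 36 probe sets of member genes were below the minimum. The s_at and x_at types made up 16.1% of members and 21.4% of the measured probe sets.

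In the gene order of the reference assembly, 197 member genes could be placed, and 4 pairs were direct neighbours. Beside IAA30 and IAA31 these were LOC4338092 with LOC_Os05g11950, described as a GDSL lipase, LOC4343986 with LOC4343987, and LOC4347708 with LOC4347709. The differences in these 4 pairs ran from 1.0 to 2.15 at 2 h and from 1.02 to 1.73 at 0 h.

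The threshold cuts through a continuum. The 3 members nearest inside it at 2 h were U44, LOC4338092 and LOC4331414, all at 1.0, and the 3 nearest outside it lay between 0.99 and 1.0. At 0 h the nearest inside were LOC4340553, CESA3 and LOC4327088 between 1.0 and 1.01, and the 3 nearest outside it lay between 0.99 and 1.0.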

How the data were processed

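Leaf RNA of 4 conditions was measured on 4 Affymetrix Rice Genome Arrays, 1 per condition. The values are log2 signal as the authors deposited them, made with GCOS (the submitters' processing notes name MAS5, with no version). The scaling target is not given in the sources used here. The 123 control probe sets were left out, except 9 hybridization controls used as an alternative scaling. Differences and changes were subtracted on the log2 scale with Python 3.11.15, NumPy 2.4.6 and pandas 2.3.3. The selection step was tested on simulated data. With 1 array per condition no p-value or SD was computed, and precision is limited by how few arrays there are.

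Gene names came from the platform annotation, updated through a RefSeq gene table (assembly ASM3414082v1) used for names and gene order only. Of 29 lists run by gene name, 46 names of other families were taken out, and 1 list by description alone was not run. Members, lists and alternatives were chosen with earlier results of these data known. Named were the 12 largest differences paired with 1 gene, 5 per extreme of the shift between times and of the change after PEG, 3 on each side of the threshold, up to 4 per list, and any member with a gene name. Members known only by a description, and genes outside the members, were picked with their values in view.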

Additional observations from a re-analysis of the deposited data

Results flagged for a closer look

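Among the members named by rule or by gene name, 13 changed after PEG with opposite signs in RNAi-9 and WT. With 1 array per condition these differences were not tested, and values near 0 have no sure sign. Lower in RNAi-9 than in WT was the change of U1 (by -3.29, with -2.81 in RNAi-9 and 0.48 in WT), U2 (-2.08, with -1.66 and 0.41) and U10 (-2.00, with -0.52 and 1.49). Smaller gaps of that kind were those of LOC9269146 (-0.93), MADS14 (-0.85), CRSH2 (-0.50) and LOC4334163 (-0.26). Higher in RNAi-9 was the change of LOC9270995 (by 1.93, with 0.22 in RNAi-9 and -1.7 in WT), LOC4352505 (1.75, with 0.99 and -0.75) and LOC4346087 (1.19, with 0.72 and -0.47). LOC4327088 (0.54), LOC4340553 (0.44) and CYP701A8 (0.23) followed.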

How the results depend on the processing

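The direction of each median over all the members held under each alternative run. For the genotype differences this was fixed in advance, since the rule set every member above 1 at both times. The 2 h medians of several lists did not keep theirs. Scaled to the hybridization controls, those of the cell wall and Aux/IAA genes fell below 0. So did those of ethylene (0.04 to -0.39), auxin (0.17 to -0.26), aquaporins (0.22 to -0.20), sugar (0.09 to -0.33) and cold and BURP (0.16 to -0.27), among others. The LEA and dehydrin list and the diterpenoid list stayed above 0, at 0.65 and 0.11. Of 75 alternative values, 52 lay within 1.5 times the reported count or inside the binomial interval of the reported median. These 2 bounds are unlike. The interval treats members as independent and holds no error between arrays or plants, so nothing about stability is read from the tally. Scaling the arrays to the 9 hybridization controls, which lowered the 2 h difference of the measured probe sets to a median of -0.45, left 111 probe sets chosen, 108 of them members, and 169 over 2-fold lower at both times (a count added after the data were seen). It also gave a median difference of 0.89 at 2 h and a median change of 0.26 in RNAi-9. Over 2-fold lower after PEG were then 41 members in RNAi-9 and 13 in WT. All 273 members stayed above 0 at both times, which the rule's limit of 1 fixed under a shift of this size. Of them, 236 had a smaller difference at 2 h, against 164 as deposited. Setting arrays to a common median over all probe sets gave median differences of 1.28 at 2 h and 1.40 at 0 h and 148 members with a smaller difference at 2 h, and scaling to the median of probe sets of at least 8 left 13 members over 2-fold lower in WT. A minimum of 5 gave 371 members, and a floor of 6 in place of a minimum 364. A minimum of 8 gave 100 members, of which 62 had a smaller difference at 2 h, a median difference of 1.26 at 2 h and a median change of 0.45 in WT. An offset of 32 gave median differences of 1.24 at 2 h and 1.38 at 0 h. Thresholds of 1.5-fold and 3-fold gave 822 and 59 probe sets chosen. At 3-fold, 50 members in RNAi-9 and 64 in WT were higher after PEG and 6 and 6 lower, and at 1.5-fold 46 and 39 were lower. The search for promoter motifs was not run because no promoter sequences were used here. No replicate could be left out with 1 array per condition. No paired analysis was possible because each condition has 1 array, so the groups share no set of replicate numbers. An additive fit of genotype and time, with 1 residual degree of freedom, was not run, because the rule chose the members by those differences.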
